A study of Mus musculus with 57 samples.

Results

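Cytosolic ribosomal proteins are the protein part of the 80S ribosome, and the genes described here are the 88 of the 21118 measured genes whose symbols begin with Rpl or Rps and a digit, together with Rplp0, Rplp1, Rplp2 and Rpsa. Of these, by symbol, 52 belong to the large subunit (the 3 stalk proteins Rplp0, Rplp1 and Rplp2 and all large-subunit paralogs included) and 36 to the small subunit. The GENCODE M21 annotation gives a coding sequence for 83 of the 88. It gives none for the others, among them Rps4l and Rpl6l, which the rule on symbols keeps in. The 135 rows of ribosomal protein pseudogenes with -ps in the symbol, the ribosomal S6 kinases, Rps19bp1 and Rpl7l1 were left out of the group. The samples were 53 RNA libraries, each from the cerebral cortex of another C57BL/6 mouse carrying the transgene Aldh1l1-L10-GFP, and all groups carried it, so no library came from an animal without the tag. In such mice the promoter of Aldh1l1, an enzyme gene of astrocytes, drives a ribosomal protein fused to green fluorescent protein, and ribosomes with the tag are pulled down with an antibody to that protein (translating ribosome affinity purification, TRAP). The libraries are thus meant to hold ribosome-bound messages, with cycloheximide present to keep ribosomes in place. Without an untagged library, messages carried along in the pull-down could not be measured. Animals were labelled female or male at P1, P4, P7, P14 and P35 (postnatal days) or as adults, with 3 to 8 animals in each of the 12 groups; the labels give no age in days for the adults.

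Ribosomal proteins are made in matched amounts in a growing cell, and their messages share a start that is rich in pyrimidines, the 5′ terminal oligopyrimidine (TOP) motif. Through this motif the kinase mTOR raises or lowers their translation together, along with that of elongation factors such as Eef1a1 and Eef2. Rpl10a is the protein that usually carries the tag in TRAP lines, whereas the labels write L10, so Rpl10 and Rpl10a are treated apart. In bulk libraries of this kind, fewer cells making a message and less of the message per cell cannot be told apart.

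The sequence around the annotated start shows how far the shared start can be seen in these genes. RefSeq windows on GRCm38.p6 were at hand for 64 of the 88 members. From 40 bases before to 30 bases after the annotated start, 34 of the 64 (53.1%) held an unbroken run of at least 8 pyrimidines on the sense strand, against 3298 of 13134 genes in the table (25.1%). The ETS core CCGGAAG, searched on both strands from 250 bases before to 50 after the start, lay in 25 of 64 members (39.1%) and in 14.9% of all genes, and CTTTCC lay in 46.9% and 26.6%. The YY1 core AAGATGGC was found in 6.25% and 3.91%, and CTTTTC in 23.4% and 19.6%. The windows below are those of Rpl5, Rpl15 and Rps24, which were lower in adults, of Rpl4, which followed the other members loosely from library to library, of the paralog Rpl22l1, and of the tag pair Rpl10 and Rpl10a. Sequences run 5′ to 3′ on the gene's strand, and capitals mark pyrimidine runs of at least 8 bases.
Rpl5, chr5:107900488-107900557, plus strand: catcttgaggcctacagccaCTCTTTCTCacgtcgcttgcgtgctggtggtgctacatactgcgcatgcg
Rpl15, chr14:18270957-18271026, minus strand: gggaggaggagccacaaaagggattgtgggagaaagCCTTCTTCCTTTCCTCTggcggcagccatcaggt
Rps24, chr14:24490638-24490707, plus strand: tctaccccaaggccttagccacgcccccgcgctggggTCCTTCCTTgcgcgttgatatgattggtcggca
Rpl4, chr9:64173347-64173416, plus strand: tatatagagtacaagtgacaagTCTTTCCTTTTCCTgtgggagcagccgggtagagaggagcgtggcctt
Rpl22l1, chr3:28805468-28805537, plus strand: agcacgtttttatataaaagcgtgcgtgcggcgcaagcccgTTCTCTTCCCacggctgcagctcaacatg
Rpl10, chrX:74270776-74270845, plus strand: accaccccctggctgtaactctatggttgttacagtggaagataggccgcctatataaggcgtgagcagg
Rpl10a, chr17:28328431-28328500, plus strand: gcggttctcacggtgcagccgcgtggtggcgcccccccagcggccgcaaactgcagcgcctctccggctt
In Rpl15 and Rps24 the run spans the annotated start, in Rpl22l1 it begins just after it, and in Rpl5 and Rpl4 it lies upstream. No such run lies in these windows of Rpl10 and Rpl10a, which says only that these letters are not there.

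Ribosomal protein messages were abundant, and their summed share differed widely between libraries. The 88 genes took from 0.44 to 3.40% of all counts, with a median of 1.44% over 53 libraries. Of the members, 84 had a mean of at least 10 CPM (counts scaled to a common library size with TMM factors) and 68 a mean of at least 100 CPM. Per kilobase of annotated exon, high mean levels were those of the stalk protein Rplp1 (625 CPM per kb), Rpl36 (408), Rpl41 (407) and Rps15 (389). The lowest were Rpl39l (0.160 CPM per kb) and Rpl3l (0.323), paralogs of Rpl39 and Rpl3, followed by Rps3a2 (3.20), Rps23 (4.46) and Rpl17 (8.96). Exon length here joins all annotated transcripts of a gene, so genes with long rare transcripts rank low, and reads shared with pseudogene copies could have been split, which makes levels uncertain for genes with close copies. Of the 88 members, 25 overlap another gene of the table, 7 of them on the same strand.

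Total counts ran from 14768178 to 48541139 per library (median 24033399). The library P1 female 4 stood apart with 10085 genes at 10 counts or more, and P7 female 40 and P14 male 4, also of set 4, were next lowest. Without these 3 libraries 12 members were lower in adults than at P1 in the fit without the set term and 56 in the fit with it, against 19 and 57 with all libraries. Libraries are single animals, so the p values measure the spread between animals and between their preparations.

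The share of counts in the 88 genes was highest in the youngest animals. The 8 libraries of P1 had a median of 2.03% (range 0.963 to 3.36%) and the 8 of P4 one of 1.66%. The median was 1.30% in the 12 libraries of P7 and 1.62% in the 10 of P14. It was 1.09% in the 6 libraries of P35 and 1.16% in the 9 adult ones (range 0.509 to 1.99%). The ranges of neighbouring ages overlapped, and so did those of P1 and adults. Libraries also grouped by the first digit after the dash of their description names (1, 2, 3, 4 or 6), called the replicate set here, and by S for 4 P7 libraries from the second sequencing run alone. Between sets the median share ran from 0.752% in set S and 0.813% in set 3 through 1.45% in set 1, 1.58% in set 6 and 1.75% in set 2 to 2.77% in set 4. The labels do not say what the digit stands for. Every age but P7 lacks set S and P35 lacks set 2, while each of the other sets holds libraries of all 6 ages, so age was tested both without and with the set as a term.

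**Figure D1:**
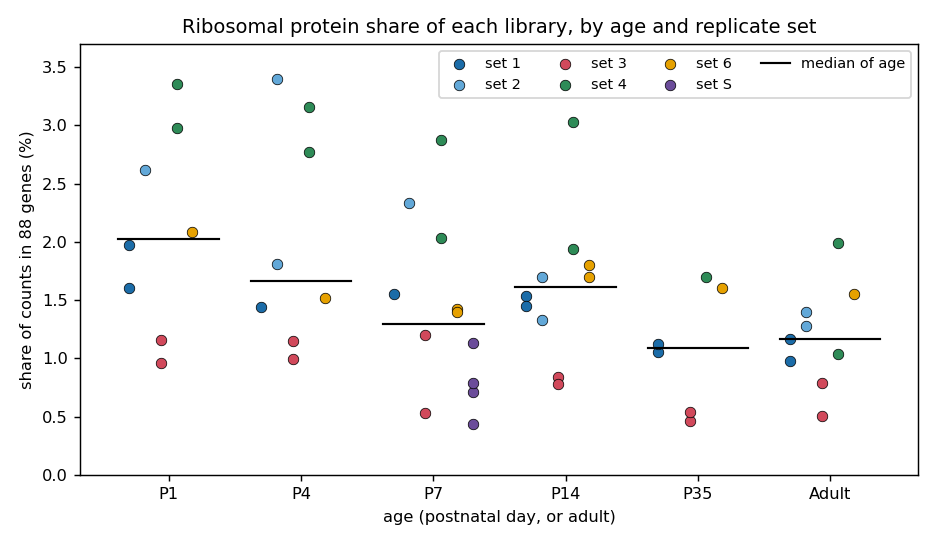
Percent of all counts in the 88 ribosomal protein genes (vertical axis) in each of 53 libraries, by age (horizontal axis) and replicate set (colour), with the median of each age as a line. Every set 4 library lies above every set 3 library of its age, and the median falls from 2.03% at P1 to 1.16% in adults.

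Between P1 and adulthood, ribosomal protein messages were lower as a group, and members with long coding sequences passed the test most often. Without the set term 19 members were lower in adults and 1 was higher, against 13.4% and 14.6% of all 21118 genes in the same directions. With library totals in place of TMM scaling 36 were lower. With the set as a term 57 members were lower and 1 was higher, against 19.5% and 21.8% of all genes. The median log2 difference, adult minus P1, was -0.66 over the 88 members in either fit, against 0.06 over all genes, and 85 of the 88 differences were negative. All 19 members called without the set term were also called with it. Among small-subunit genes 27 of 36 fell with the set term, among large-subunit genes other than the stalk 29 of 49, and of the stalk Rplp0 alone. No member separated the 8 P1 from the 9 adult libraries completely, whereas 2.69% of all genes lay wholly lower in adults and 3.58% wholly higher.

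Rplp0, the stalk protein that binds the ribosome through the ribosomal RNA and holds the Rplp1 and Rplp2 dimers, showed the largest fall among the abundant members. It stood between 292 and 1046 CPM at P1 (median 439) and between 130 and 409 CPM in adults (median 198). All adult libraries except adult female 4, at 409 CPM, lay below the lowest P1 library. The log2 difference was -1.32 ± 0.34 (SE, adjusted p = 0.0026) without and -1.28 ± 0.17 (SE, adjusted p = 3.3e-08) with the set term. Rpsa, the laminin receptor protein of the small subunit, went from 395 ± 185 CPM (SD, n = 8) to 167 ± 56.7 CPM (SD, n = 9), with a log2 difference of -1.17 with the set term (adjusted p = 6.3e-08). Rpl5, which carries 5S ribosomal RNA and can bind Mdm2, had a narrow spread. It ran from 99.5 to 214 CPM at P1 and from 50.2 to 102 CPM in adults, so that the groups overlapped only in adult female 4 and P1 female 1, and its log2 difference was -1.03 ± 0.22 (SE, adjusted p = 0.00029) without the set term.

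Other members called in both fits were Rpl15 (log2 -1.07 with the set term), Rpl22 (-1.04), the large-subunit core protein Rpl4 (-0.91), Rpl10 (-1.02), Rps24 (-1.11) and Rpl32 (-1.23). Rps3a1, a small-subunit protein, stood at -0.91 with the set term (adjusted p = 2e-06). Rps19 (-1.09) and Rps28 (-0.84) passed with the set term only. Rpl39l had 0 counts in 23 of 53 libraries and at most 31. Its fitted difference, -2.45 without and -2.54 with the set term, rests on these few counts and did not pass (adjusted p = 0.116 and 0.103).

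The count of 19 depended on single libraries. It was 9 without P1 male 4, 9 without P1 female 4, 10 without adult female 3 and 33 without adult female 4. With the set term the count lay between 47 and 61 whichever library was left out.

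At the other end, the differences closest to 0 among the abundant members belonged to proteins that are mostly short. Rps21 had a log2 difference of 0.10 ± 0.28 (SE), Rps29 of -0.10 ± 0.33, Rpl37 of -0.13 ± 0.25 and Rplp1 of -0.14 ± 0.26, all with the set term and none past the threshold. Rpl22l1, a paralog of Rpl22, was at 0.17 ± 0.41. Among the measured paralogs, Rps4l, for which no coding sequence is annotated, fell (-0.97 ± 0.27, SE, adjusted p = 0.0034 with the set term). Rps27l (-0.45), Rpl36al (-0.31) and Rps27rt (-0.42) did not pass. Rpl3l was the single member called higher in adults, at a mean of 0.808 CPM against 0.129 CPM at P1 and never above 55 counts in a library. Its fitted log2 difference of 2.58 depends on few counts, and the call is lost without P1 male 1, adult female 1 or P1 male 2, and in the fit without the set term also without P1 female 3.

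**Figure D2:**
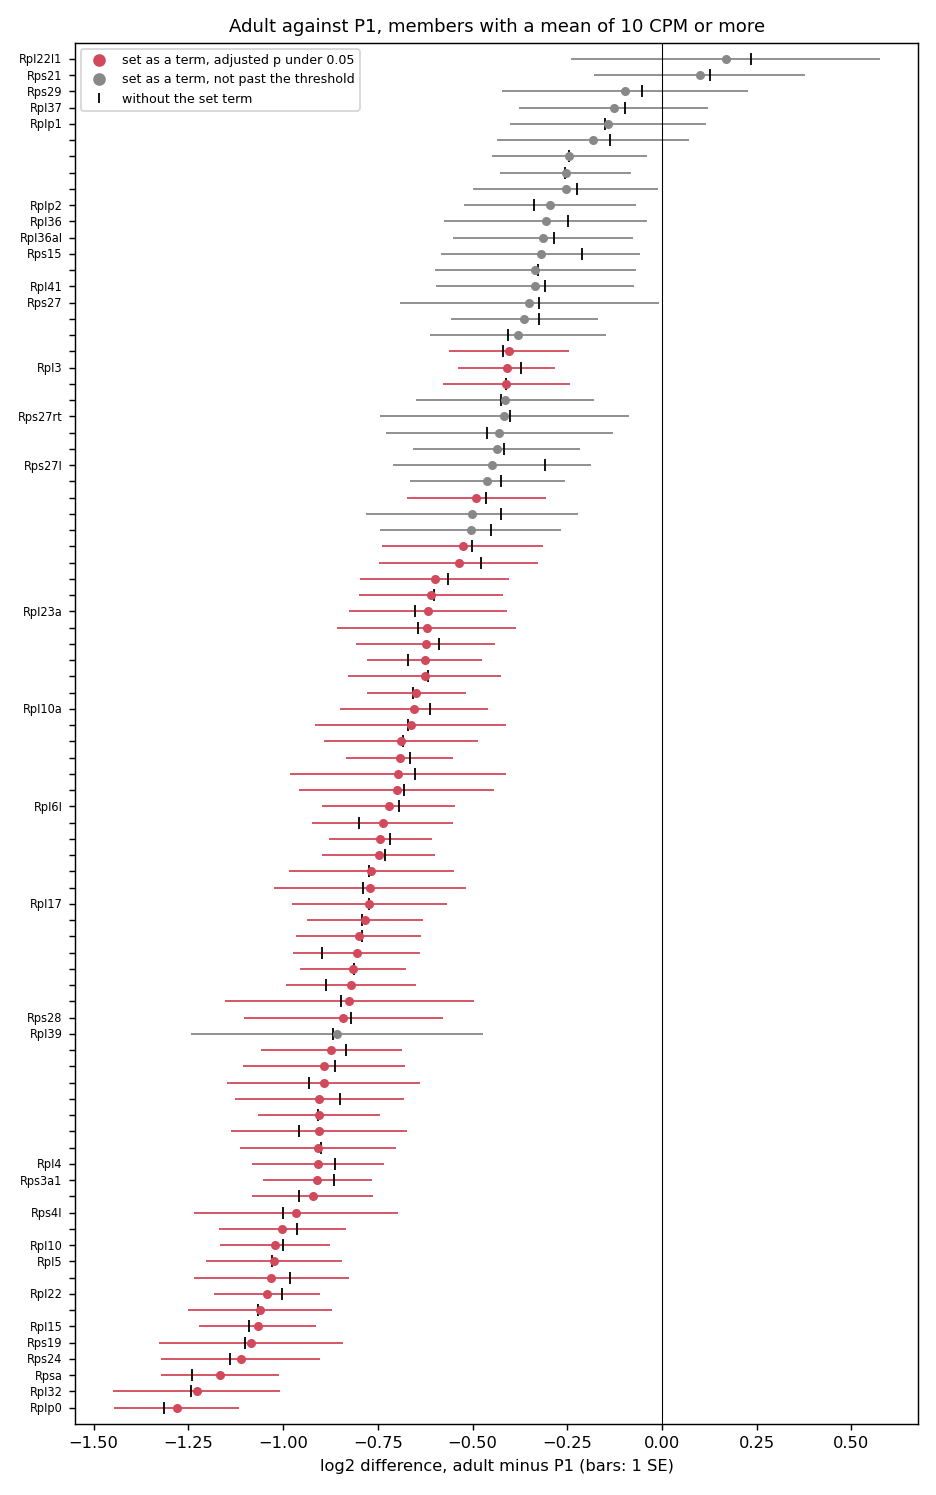
Log2 difference, adult minus P1, for the 84 members with a mean of at least 10 CPM, with the set as a term (points, bars of 1 SE, red where the adjusted p is under 0.05) and without it (black ticks), with names for members the text describes. Rplp0 lies lowest at -1.28, and Rps21 and Rpl22l1 lie above 0.

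Coding length differed between these ends. The longest annotated coding sequence of a member ran from 138 to 1257 bases with a median of 453 (83 members with one), against a median of 1359 bases in 9622 other protein-coding genes with a mean of at least 10 CPM. Among the 80 abundant members with a coding length, 20 of the 20 longest (from 626 bases) passed the threshold as lower in adults with the set term. Their median log2 difference was -0.80, and 19.5% of all genes passed as lower. Of the 20 shortest (up to 356 bases) 5 passed as lower, with a median of -0.42, and all but Rps21 (0.10) had a negative difference. Passing also depends on each member's SE, which was not compared by length. Spearman's rho between coding length and the difference was -0.43 over these 80 genes, which share libraries and are not independent replicates. Over the 9622 other protein-coding genes it was -0.04. Other protein-coding genes under 500 bases had a median difference of 0.23 with the set term (865 genes), against -0.52 over the 50 members of that length. In the next class of length the medians were 0.08 (2320 genes) and -0.77 (30 members). This split by length was made after the data were seen.

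Within single sets most members were also lower in adults. The median over the 88 members, adult minus P1, was -0.52 in set 1, -0.83 in set 2, -0.70 in set 3, -0.95 in set 4 and -0.20 in set 6, with 86, 87, 86, 85 and 60 members lower. Of all genes 46.5%, 46.5%, 50.8%, 34.7% and 52.1% were lower in the same sets. In set 4 the median over all genes was 0.56, and without P1 female 4 it was 0, with -0.86 over the members. No test was run within sets. Of the members, 58 were lower in 5 of 5 sets and 26 in 4 of 5, and the share of all genes lower in that many sets was not counted. Set 2 held 1 P1 library, a labelled male. Rplp0 was lower by log2 values between -1.03 and -1.67, Rpl10 between -0.68 and -1.32, and Rpl5 between -0.65 and -1.35. Set 6, with 1 library at each end, gave the smallest median, and Rps21 and Rps29 were higher in the adult library there (0.76 and 0.60). Its P1 library was labelled female and its adult library male, and in the adult one Xist and Y-linked genes went against the label.

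Over the 6 ages together, 14 members (15.9%) changed without the set term, against 24.9% of all genes, and 51 changed with it, against 43.5% of all genes. The count without the set term was 24 with library totals, 9 without P35 male 3 and 9 without P1 male 4. The smallest adjusted p values without the set term were those of Rpl5 (0.00018), Rpsa (0.00097), Rpl4 (0.0010) and Rplp0 (0.0014). In order of age, mean levels of Rpl4 were 576, 462, 384, 325, 255 and 317 CPM, lowest at P35. Those of Rpl5 were 155, 143, 119, 97.7, 73.8 and 75.6 CPM, and those of Rplp0 548, 515, 326, 372, 172 and 216 CPM. No single step between neighbouring ages called a member without the set term, and hardly any gene was called in these steps. The share of all genes called was 0% in the earliest step (P1 to P4), 0.152% between P4 and P7, 0.0189% between P7 and P14, 0.0237% between P14 and P35, and 0% in the last step. At an unadjusted p under 0.05, 0, 0, 0, 18 and 1 members differed in the steps in order of age. The shares of all genes were 4.6%, 7.56%, 9.12%, 8.25% and 2.14%. With the set term these counts were 0, 20, 1, 50 and 1 in order of age, against 12.0%, 13.4%, 17.4%, 14.8% and 4.19% of all genes. DESeq2 and voom with limma, both run without the set term for these counts, called 0 members in any step. With the set term 2 members fell from P14 to P35, Rplp0 (-0.84 ± 0.18, SE, adjusted p = 0.013) and Rpl10a (-0.84 ± 0.21, SE, adjusted p = 0.036), against 0.81% of all genes.

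No member passed the test between the labelled sexes. The edgeR quasi-likelihood test called 0 members between females and males, where 0.0237% of all genes were called, and 0 with a difference between the sexes in the change with age, where 0% were. At an unadjusted p under 0.05 the counts were 0 and 1, against 399 and 353 of all 21118 genes. DESeq2 and voom with limma also called 0 members. Levels of Xist and of Y-linked genes went against the labelled sex in 7 libraries, and without those the counts were again 0. In 5 libraries the description letter and the labelled sex disagreed, and in 3 of these 5 the levels went with the letter. Some libraries counted as matching their label had both signals, such as P7 female 30 with 17.8 CPM of Y-linked genes and 47.7 CPM of Xist. The counts of 0 between the sexes therefore rest on labels that are in part doubtful.

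Differences between the replicate sets reached nearly every member. Of the 88 members, 86 differed among the sets (F test, 69.1% of all genes). In set 3, 77 members were lower than in set 1 and 1 was higher, against 24.8% and 28.2% of all genes, with a median log2 difference of -0.93. In set S, 61 were lower and 1 higher, against 18.3% and 14.3%, with a median of -0.94. In set 4, 79 were higher and 0 lower, against 9.56% and 8.3%, with a median of 0.89. In set 6, 22 were higher and 2 lower, against 17.2% and 17.1%, with a median of 0.33. In set 2 the edgeR test called 0 members and 0% of all genes, and DESeq2 and voom with limma also called 0 members. At an unadjusted p under 0.05, 21 members differed there, against 1126 of all 21118 genes, and 86 of 88 differences were above 0. All these comparisons share set 1, so their members are given side by side only.

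The largest differences in set 3 were those of Rps29 (-1.50 ± 0.30, SE), Rps27l (-1.49 ± 0.24) and Rpl23a (-1.40 ± 0.19). Rps29 ranged from 3.3 to 13.8 CPM in set 3 and from 12.0 to 27.3 CPM in set 1, so the groups overlapped only at their edges. The call in set S rests on few libraries: 62 members differed in all, but 25 without P7 female S2, 27 without P7 male S2 and 30 without P7 male 2. In set S the largest among members past the threshold were Rpl39 (-2.01 ± 0.61), Rpl22l1 (-1.80 ± 0.66) and Rps27 (-1.59 ± 0.53). Set S holds P7 libraries only, and 1 P7 library of set 3, P7 female 30, had the highest P7 values of these genes, at 515, 431 and 366 CPM. Without it the differences were -1.22 ± 0.39 (adjusted p = 0.015), -0.82 ± 0.32 (adjusted p = 0.049) and -1.04 ± 0.39 (adjusted p = 0.039). In set 4 Rps4l (1.48 ± 0.27), Rps27rt (1.35 ± 0.33) and Rps28 (1.27 ± 0.26) led. In set 6 Rps4l (2.07 ± 0.29), Rpl15 (1.12 ± 0.16) and Rpl6l (1.10 ± 0.19) were higher, and Rps27l (-0.80 ± 0.28) and Rpl10a (-0.71 ± 0.21) lower. Rps4l was the single member higher in sets 3 and S, and it was also higher in sets 4 and 6, with means of 21.0 CPM in set 1 and 78.6 CPM in set 6. It overlaps Tmtc1 on the other strand, and whether counting used the strand is not given in the sources used here, so reads of the 2 genes cannot be told apart.

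**Figure D3:**
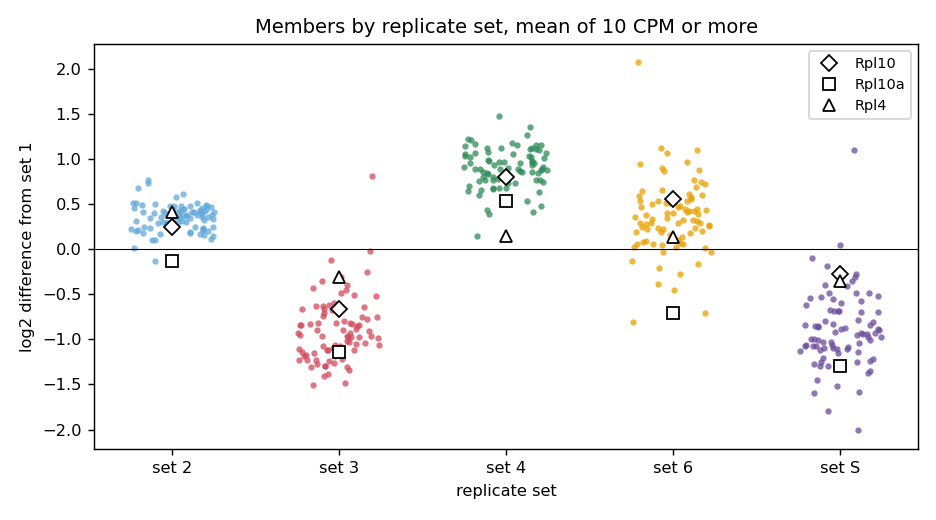
Log2 difference from set 1 for the 84 members with a mean of at least 10 CPM (points), in the fit with group and set terms, with Rpl10, Rpl10a and Rpl4 marked. Members lie low in sets 3 and S, high in set 4 and spread about a median of 0.33 in set 6, where Rpl10a (-0.71) and Rpl10 (0.56) part.

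Coding length and cell type markers also differed with the sets. Other protein-coding genes under 500 bases had a median difference of -1.05 in set 3 and -1.13 in set S, against -1.05 and -1.08 over the members of that length, while the class of longest coding sequences (2829 genes) stood at 0.88 and 0.96. In set 4 the other genes under 500 bases had a median of 0.41 and the members 0.95. Across the 80 abundant members, rho with coding length was 0.49 in set 3, 0.73 in set S, -0.44 in set 4 and -0.07 in set 6. Across the 9622 other protein-coding genes it was 0.58, 0.57, -0.25 and 0.17 in the same order. Rpl4, Rpl3 and Rpl5, with long coding sequences, had differences of -0.31, -0.43 and -0.02 in set 3. These 3 do not stand for all long members. Over the 30 members in the class of length next above 500 bases, which holds Rpl5, the median in set 3 was -0.82. Their differences ran from -1.38 to -0.02, and the median over other protein-coding genes of that class was -0.61. Of the 80 mitochondrial ribosomal proteins, 63 were lower in set 3. Of 22 astrocyte markers, 22 were lower in sets 3 and 6, 19 in set S and 11 in set 4. Of 22 neuronal markers, 21 were higher in sets 3 and 6, 18 in set S and 11 in set 4. Of all genes, 24.8% passed the threshold as lower and 28.2% as higher in set 3. These shares were 17.1% and 17.2% in set 6, 18.3% and 14.3% in set S, and 8.3% and 9.56% in set 4. The summed level of the astrocyte markers had a median of 18301 CPM in set 1, 7359 CPM in set 4, 4578 CPM in set 3 and 3058 CPM in set 6, and that of neuronal markers 3137, 6729, 10624 and 16690 CPM. Blood markers had a median sum of 196 CPM in set 1, 426 CPM in set 4 and 866 CPM in set 6. Endothelial and mural markers summed to 46.2 CPM in set 1, 113 CPM in set 3 and 117 CPM in set 6, and mitochondrially encoded genes to 78.5 CPM in set 1 and 268 CPM in set 3. Slco1c1 and Slc7a10 among the astrocyte markers and Slc17a6 among the neuronal markers were at 0 in at least 1 library. The other astrocyte and neuronal markers were detected in all 53. Alas2 among the blood markers and Tek, Kdr and Pecam1 among the endothelial and mural markers were also at 0 in at least 1 library. The part of length or cell type in the set differences was not tested.

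**Figure D4:**
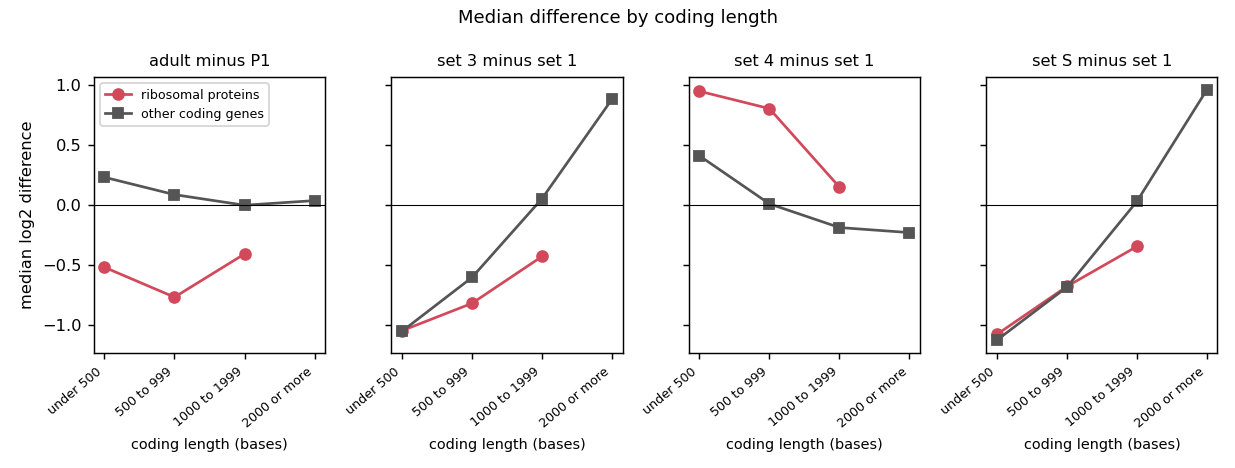
Median log2 difference by coding length (bases) for ribosomal proteins (red circles) and other protein-coding genes with a mean of at least 10 CPM (grey squares), in 4 comparisons with the set as a term. Both groups lie together below 500 bases in sets 3 and S (near -1.1), and apart between P1 and adult (-0.52 against 0.23) and in set 4 (0.95 against 0.41).

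Levels of the members varied together from library to library. After the means of the 12 groups were taken out, the median correlation of a member's log2 CPM with the mean of the other members was 0.96 over 53 libraries, with 71 of 88 above 0.9. After the means of the sets were also taken out the median was 0.91. The members that stood apart were Rpl3l (0.20), Rpl39l (0.21), Rps4l (0.27) and Rpl4 (0.40), the first pair at a few counts. Among 10177 other genes with a mean of at least 10 CPM, those most like the members' mean were Gm2000 (r = 0.990), Gm10036 (0.988), Gm11361 (0.986), Gm10443 (0.986), Mrpl52 (0.984), Gm11353 (0.984), Pfdn5 (0.983) and Gm10269 (0.983). Of the Gm genes, GENCODE lists all but Gm2000 as processed pseudogenes. Pseudogenes were set aside only where the symbol holds -ps, so those with other names stayed among these genes. Whether they share reads with the members was not tested. Mrpl52 is a mitochondrial ribosomal protein and Pfdn5 a prefoldin subunit, and between P1 and adults neither passed the test (-0.27 and -0.07 with the set term), unlike 57 of the members. All these values share library, depth and set.

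Rpl10 and Rpl10a were both lower in adults with the set term. Rpl10 lies on chromosome X (GRCm38, chrX:74270812-74273135, plus strand) and Rpl10a on chromosome 17 (chr17:28328471-28331033, plus strand). Rpl10 ranged from 153 to 391 CPM at P1 (median 237) and from 50.6 to 208 CPM in adults (median 124), with a log2 difference of -1.02 ± 0.15 (SE, adjusted p = 2.5e-07) with the set term. Rpl10a ranged from 93.4 to 279 CPM at P1 (median 187) and from 43.2 to 194 CPM in adults (median 104), with -0.66 ± 0.19 (SE, adjusted p = 0.0061). Both groups overlapped for either gene. The log2 ratio of Rpl10a to Rpl10 counts was -0.45 ± 0.41 (SD, n = 8) at P1 and -0.07 ± 0.50 (SD, n = 9) in adults, a difference of 0.38 that did not pass a two-sided exact permutation test (p = 0.109). Within sets the difference was 0.32 (exact permutation within sets, p = 0.0471). With 1 of the 17 libraries left out it ran from 0.272 (without adult male 1, exact permutation, p = 0.2) to 0.492 (without adult male 60, p = 0.0261), and only the latter p was under 0.05.

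Over the libraries of all sets together, the ratio was higher where Aldh1l1, whose promoter drives the tag, was higher. Over 53 libraries Pearson's r between log2 Aldh1l1 and the log2 ratio was 0.70 and Spearman's rho 0.79 (permutation p = 1e-05 for each, the smallest that 100000 permutations can give, and 2.67e-05 after Benjamini-Hochberg adjustment over 8 relations). Without P1 female 4 and P1 female 6, the libraries farthest from the median of Aldh1l1, r was 0.76, and after removal of group means it was 0.72. These permutations exchanged libraries across sets and set means were not removed, so their p values do not allow for the likeness within sets. Within single sets the relation passed the threshold in set 4 alone, and the difference between sets was not tested. In set 4 r was 0.83 (n = 11, permutation p = 0.00019, adjusted p = 0.00038), and without P1 female 4, at 10.1 CPM of Aldh1l1, it was 0.74 (n = 10, permutation p = 0.0067). In sets 1, 2, 3 and 6 r was 0.23, 0.31, 0.54 and 0.13 (permutation p = 0.550, 0.435, 0.0672 and 0.769, exact in sets 2 and 6, n = 8 each). Spearman's rho was 0.04, 0.48, 0.22 and 0.10 in these sets, and 0.80 in set 4. Set 1 held a mean ratio of 1.18 ± 0.30 (SD, n = 10) at 254 CPM of Aldh1l1, and set 6 of 0.51 ± 0.07 (SD, n = 8) at 60.3 CPM. Between them lay set 4 with 0.99 at 207 CPM, set 2 with 0.91 at 170 CPM and set 3 with 0.85 at 126 CPM. Set S, with 0.59 ± 0.25 (SD, n = 4) at 154 CPM, had a lower ratio than set 3 at a higher level of Aldh1l1.

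**Figure D5:**
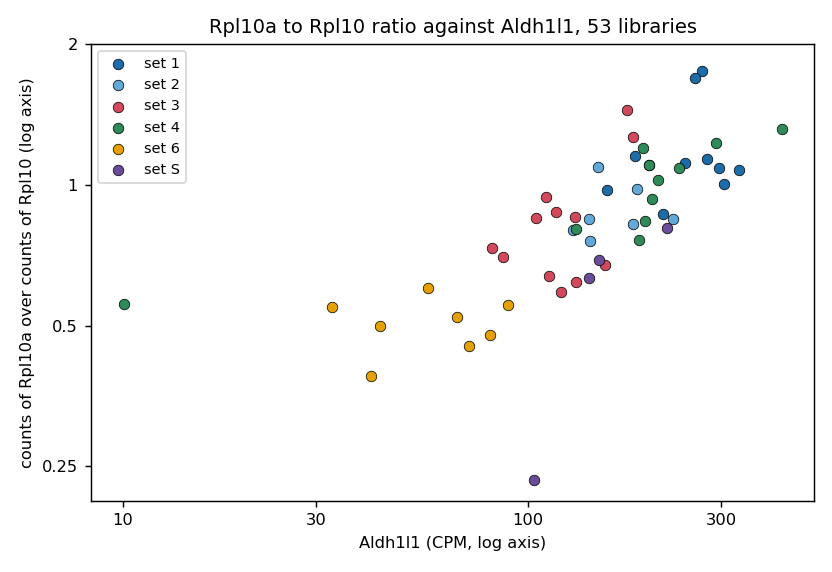
Counts of Rpl10a over counts of Rpl10 (log axis) against Aldh1l1 in CPM (log axis) in 53 libraries, coloured by replicate set. Set 6 lies low on both axes and set 1 high on both, with P1 female 4 (set 4) at 10.1 CPM of Aldh1l1.

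Other genes of translation were counted beside the members between P1 and adults, where 13.4% of all genes fell and 14.6% rose without the set term and 19.5% and 21.8% with it. Of 21 elongation and co-regulated factors, 12 fell without and 17 with the set term. Eef1a1, which brings aminoacyl-tRNA to the ribosome, fell by 1.31 on the log2 scale with the set term (adjusted p = 2.3e-09), Hnrnpa1 by 2.01 and Pabpc1, the poly(A)-binding protein, by 1.06. Of 27 initiation factors 4 fell and 1 rose without and 13 fell and 2 rose with the set term, among them Eif4a1 (-0.98) and Eif3b (-0.95) down and Eif1 (1.11) up. Of 38 ribosome biogenesis genes 15 fell without and 20 with the set term, led by the nucleolar methyltransferase Fbl (-1.64), Gar1 (-1.23) and Brix1 (-1.18). Of 19 genes of mTOR and TOP control 4 fell and 1 rose without the set term, and 5 fell and 4 rose with it, the latter near the shares of all genes, with Myc lowest (-2.75). Of 80 mitochondrial ribosomal proteins 10 rose and 1 fell without the set term, and 27 rose and 2 fell with it. Their median was 0.21 with the set term, with 58 differences above 0. The pseudogene rows, whose reads may come from the parent genes, fell in 50 of 135 cases with the set term. The median log2 differences with the set term were -0.63 for elongation and co-regulated factors, -0.38 for initiation factors, -0.44 for biogenesis and 0.03 for mTOR and TOP control, against 0.06 over all genes.

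Markers of cell types and of dividing cells changed over the same interval. With the set term 20 of 20 cell cycle genes fell (median -4.13), led by Cdk1 (-5.78), 20 of 22 astrocyte markers rose (median 2.29), and 11 of 15 oligodendrocyte markers rose and 2 fell. Neuronal markers rose in 12 and fell in 8 of 22 cases, with Snap25 up (3.08) and Dcx, a marker of immature neurons, down (-5.69). Microglia markers rose in 4 of 11 cases. Endothelial and mural markers rose in 1 and fell in 2 of 10, the 5 blood markers had differences between -0.09 and 0.17, and the 13 mitochondrially encoded genes between -0.59 and 0.67, none past the threshold. The summed level of the 22 astrocyte markers ran from 1119 to 7719 CPM at P1 and from 5308 to 32860 CPM in adults, and that of the 22 neuronal markers from 2515 to 12422 and from 4302 to 25814 CPM, so the libraries hold neuronal messages at both ages. Of the microglia markers, 8 of 11 were at 0 in at least 1 library. Their part in the fall of the ribosomal proteins was not tested.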

How the data were processed

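The data were gene counts from 53 TRAP libraries, deposited as raw counts of 21118 genes by the authors, with CASAVA, HISAT2, SAMtools and featureCounts on GRCm38.p5 named in the submitters' processing notes; no source used here gives versions, the strand setting or the handling of reads with several matches. Per the labels, RNA was selected with oligo-dT and libraries marked the strand. Of 57 records, 4 animals at P7 were sequenced in a pair of runs and have 1 column each. Positions and coding lengths come from GENCODE M21 and start windows from RefSeq.

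Counts were fitted with edgeR 4.0.16 (quasi-likelihood, TMM scaling, robust) in R 4.3.3 on all libraries, with 12 groups of labelled sex and age and a run term, or with the replicate set in place of the run term. Ages were compared as means over both sexes. P-values were adjusted by Benjamini-Hochberg over 21118 genes, with a threshold of 0.05; the filter on low counts removed 0 genes. Levels are CPM on TMM-scaled library sizes, correlations used log2 values with a prior count of 2, and permutation tests were two-sided, exact or with 100000 permutations. The scripts were tested on simulated data. Alternatives were DESeq2 1.42.0, voom with limma 3.58.1, other scalings and filters, no run term, and libraries left out, for which the dispersion of the full fit was kept. Members, lists and tests were chosen with earlier results of these data known; the split by coding length, set 4 without P1 female 4, and the fits without the libraries that went against their labelled sex were added after seeing the data. Named genes were those with the smallest adjusted p or largest difference in each comparison, the ends of the level range, the stalk, the paralogs, Rpl10 and Rpl10a; Rps19, Rps28, Rps24, Rpl32, Rpl3 and the members whose start windows are printed were chosen after their values were seen. A member that the rule for levels names is not reported here.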

Additional observations from a re-analysis of the deposited data

Results flagged for a closer look

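Rows of ribosomal protein pseudogenes with -ps in the symbol, which the comparisons of the 88 members do not use, held counts in every library. Their share of all counts had a median of 0.291% and ran from 0.0831 to 0.662% over 53 libraries. With these rows added, the median share of ribosomal protein counts was 1.72% in place of 1.44%. Of 40 combinations of group and measure tested for a library far from the others of its group, 0 passed.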

How the results depend on the processing

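Of 58 members called in either fit, no direction reversed under 11 alternatives of the fit without the set term (551 values on the same side of the threshold, 20 lost and 66 gained) or under 8 of the fit with it (442 and 21 lost). The count lower in adults, 19, became 57 with the replicate block, 36 with library totals and 12 without the 3 libraries of low gene number; the count higher, 1, became 0 in both fits when only genes with a mean of at least 1 CPM were kept, which leaves out Rpl3l. The count over the ages, 14, became 51 with the block and 24 with library totals, and that from P14 to P35 became 2 with the block. The difference in the Rpl10a to Rpl10 ratio was 0.319 with the block (exact permutation within sets, p = 0.0471). The block changed no other count of calls by over 1.5 times. With 1 library left out, the ranges were 9 to 33 (lower in adults), 0 to 1 (higher, either fit), 9 to 21 (over the ages; 9 without P35 male 3 and 9 without P1 male 4), 47 to 61 and 46 to 61 (lower in adults and over the ages, with the set term), 75 to 84, 72 to 83, 17 to 30 and 25 to 69 (sets 3, 4, 6 and S against set 1), 86 (among sets) and 0.272 to 0.492 (ratio difference). The causes were not tested. The median over all genes, adult minus P1, was 0.06 with TMM, 0.11 with DESeq2 size factors and -0.05 with library totals, and that of the members -0.66, -0.61 and -0.78. Of 15 pairs of a P1 and an adult library of the same set, 13 deviated together with r above 0.1 (median 0.26, lowest 0.04). Over all ages the median r was 0.35 in 223 pairs of the same set and -0.08 in 1055 pairs of other sets. Of 53 libraries, 42 correlated best with their own set. Libraries of a set thus resembled each other, which the fit without the set term does not allow for. The set was used as a term of the second fit and not as a pairing of animals.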
